A study of Mus musculus with 18 samples.

Results

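The step from neural progenitors to neurons was described here in mouse cells labelled as Hmgn1 null, by comparing 3 arrays of neurons labelled Hmgn1-/- with 3 arrays of neural progenitors labelled Hmgn1-/-. The members were all arrays with these 2 labels, 6 of the 18 arrays in the series, and every probe set with exactly 1 gene symbol was read. All cells came from strain C57/B6, and both groups carry the same Hmgn1-/- label, so the comparison is between stages and not between genotypes. The genotypes named below are those of the labels, which the Hmgn1 signal on these arrays does not settle. The remaining 12 arrays are 3 each of Hmgn1-/- embryonic stem (ES) cells and of Hmgn1+/+ ES cells, progenitors and neurons. Per the labels, ES cells were grown with LIF and serum replacement, on mitomycin-treated embryonic fibroblasts or without them, and were taken to neural fates with a purchased differentiation kit for mouse dopaminergic neurons. The sources used here do not give the number of ES cell lines behind each genotype, the growth condition behind each array, or whether the 3 replicates of a group were separate cultures. A p-value here thus covers only how far these arrays spread, and the label does not say how separate the replicates were. A feature of 1 line cannot be told apart from its genotype.

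HMGN1 is a small protein that binds nucleosomes and competes with linker histones, and it is known for keeping chromatin accessible at promoters and enhancers. When a neural progenitor becomes a neuron it leaves the cell cycle for good, silences the stem cell and progenitor regulators, and switches on the genes of axons, synapses and electrical excitability. Cultures of this kind usually hold more than 1 cell type. In bulk RNA, fewer cells of a type and less RNA per cell cannot be told apart.

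Of 14432 tested genes 11670 passed at an adjusted p under 0.05 (80.9%). Among these, 5087 rose and 6583 fell from progenitors to neurons, and these shares of 35.2% and 45.6% are the background for each count below. By at least 2-fold, 2170 genes rose (15%) and 1857 fell (12.9%), and the median log2 difference over all tested genes was -0.13. The arrays of the groups did not overlap for 12096 genes (83.8%). With this much of the transcriptome moving, single calls say little, and size and direction carry the description. At least 8-fold, 277 genes were higher and 85 lower in neurons. Across genes, replicate arrays correlated with each other at r of at least 0.9964, and a progenitor with a neuron array at 0.8513 to 0.8549. Differences are log2 neurons minus log2 progenitors with the standard error (SE) of the fit, n = 3 arrays a group. Levels are probe set intensities on a linear scale, and the 40th percentile of an array, 36.6 to 37.9 here, was taken as the bound of the background.

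The targeted gene was read first. Hmgn1 gave intensities of 9156, 9219 and 8654 in Hmgn1-/- progenitors and 7313, 7119 and 7284 in Hmgn1-/- neurons on its brightest probe set. The Hmgn1+/+ progenitors read 11594, 11506 and 10841 and the Hmgn1+/+ neurons 8735, 9178 and 9259. Every Hmgn1-/- array lay below those of its stage but far above background. The sources used here do not say which exons were removed, and a probe outside a deleted stretch would not test the labels. The 3 bright probe sets of Hmgn1 were all lower in the arrays labelled Hmgn1-/-, and none was near background. Within the Hmgn1-/- cells the Hmgn1 signal fell by 0.32 ± 0.05 (log2, SE, adjusted p = 7.9e-06).

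The labelled cell types were checked against their markers. The summed intensity of 10 neuron markers, among them Tubb3, Map2, Dcx and Snap25, went from 7936 to 7974 in progenitors to 34088 to 35668 in neurons, and all 10 rose. Of 7 neural progenitor markers 2 rose and 3 fell. Their sums did not drop, with 19299 to 20715 in progenitors and 21271 to 21611 in neurons. In Hmgn1-/- ES cells these sums were 6998 to 7299. The panel thus set the progenitors apart from ES cells but not from neurons. The sum of the tested dividing-cell markers Mki67, Top2a and Cdk1 went from 8756 to 9685 down to 2124 to 2345. Of 6 dopaminergic markers 5 rose and 1 fell, with sums of 818.9 to 906.5 and 2792 to 2862. The 3 tested oligodendrocyte markers rose, with sums of 377.7 to 392.8 and 896.8 to 933.8. Among them Sox10 did not pass with the mean of its probe sets (log2 difference 0.07). Of 5 astroglia markers 5 rose, with sums of 540.7 to 601.4 in progenitors and 4264 to 4707 in neurons. Of 6 fibroblast markers 4 rose and 1 fell, with sums of 15077 to 15548 and 23348 to 27507, none of them under the background bound in either group. Of 5 endoderm markers 1 rose and 4 fell, with sums of 2265 to 2340 in progenitors and 3671 to 4507 in neurons, of which Ttr made up most in neurons. Of 4 pluripotency markers 3 fell, with sums of 330.0 to 360.6 and 171.4 to 183.2, and Pou5f1, Nanog and Zfp42 lay under the bound in neurons. The 2 tested muscle markers summed to 1644 to 1678 in progenitors and 117.5 to 186.8 in neurons, with Myl7 under the bound in both, and 3 endothelial markers to 359.0 to 388.8 and 220.7 to 233.2, with Pecam1 under it in both. Signal of neurons was thus present together with that of glial and fibroblast markers, and the part of these other cells in the differences below was not tested.

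The largest single rise was that of Gad1. GABA is the main inhibitory transmitter of the brain. Gad1, which makes GABA from glutamate, read 42.0, 33.6 and 26.3 in the 3 progenitor arrays and 4768, 5241 and 4424 in the 3 neuron arrays. Its progenitor mean lay under the bound, so it was at least 126-fold higher in neurons (log2 difference 7.13 ± 0.14 SE, adjusted p = 1.8e-16). Dlx1, a homeobox factor of forebrain inhibitory neurons, read 46.7, 51.2 and 48.7 against 2987, 2629 and 2953. No array of the groups overlapped for either gene, and Dlx1 rose by 5.84 ± 0.07 (adjusted p = 8.1e-19). Gad2, the other GABA-making enzyme, rose by 3.98, the vesicular GABA transporter Slc32a1 by 4.43, and the neighbours of Dlx1 in this family, Dlx2 and Dlx5, by 3.81 and 4.13. Dlx6 started under the bound and was at least 15.8-fold higher. Slc17a6, the vesicular glutamate transporter of many excitatory neurons, read 52.0, 62.9 and 58.5 against 353.5, 372.6 and 421.9 and rose by 2.71 ± 0.11 (adjusted p = 7.7e-13). Tph2, the serotonin-making enzyme of neurons, was at least 2.95-fold higher, from under the bound. In the list of transmitter identities other than dopamine, 13 of 19 tested members rose and 4 fell, with a median of 2.67. Without the filter on low values 24 members were tested, and the median was 0.81. Phox2a, a noradrenergic factor, ended below the bound and was at least 1.27-fold lower.

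Dopamine genes moved less and unevenly, although the kit is sold for that cell type. Of 23 tested members of the dopamine list 12 rose and 8 fell, and their median was 0.61. It was 0.23 without the filter on low values and 0.38 with the mean of the probe sets of a gene. Th, the rate-limiting enzyme of dopamine synthesis, read 58.8, 51.8 and 45.6 before and 148.0, 143.7 and 157.5 after the step. All neuron arrays were higher, and Th rose by 1.51 ± 0.17 (adjusted p = 3.9e-07), yet stayed within a few-fold of the bound. Slc18a2, which loads monoamines into vesicles, read 60.9, 57.1 and 52.0 against 601.4, 560.6 and 545.1 and rose by 3.31 ± 0.14. Corin, a protease that marks the ventral midbrain floor plate, was at least 18.8-fold higher, and Ret, the receptor for GDNF signals, rose by 2.29. Nr4a2, a nuclear receptor needed for midbrain dopamine neurons, rose by 2.44 ± 0.25 on the brightest of its probe sets, but of all its probe sets 4 rose and 2 fell. The dopamine transporter Slc6a3 read 28.0, 28.1 and 29.7 in progenitors, under the bound, and 43.1, 67.5 and 45.1 in neurons. Pitx3, a late dopamine factor, ended below the bound, at least 1.25-fold lower, and Aldh1a1, which marks a subset of these neurons, did not pass (-0.16, adjusted p = 0.25). Members of the list that act in patterning of the early midbrain were among those that fell, and were picked after their values had been seen. Shh, a secreted signal, went from 5803, 5724 and 6132 to 2182, 2374 and 2320 (log2 difference -1.36). Foxa2 and Lmx1b were at -0.95 and -0.76, and En1 and Wnt1 ended below the bound, at least 1.37-fold and 1.08-fold lower.

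Synaptic release genes rose nearly as a block, 23 of 24 tested with a median of 2.52. Snap25, a membrane protein of the vesicle fusion machine, read 138.8, 135.9 and 122.9 in progenitors and 2691, 2616 and 2444 in neurons, without overlap, and rose by 4.28 ± 0.09 (adjusted p = 4.3e-16). Rab3c, a vesicle-bound GTPase, rose by 4.57, the synaptotagmin Syt4 by 4.51, the granule protein Scg2 by 4.23 and the vesicle coat protein Syn2 by 4.14. Bsn, an active zone scaffold, fell by 0.34 on its brightest probe set, but its other probe set rose, and the mean of both rose by 0.49. Of 22 tested transmitter receptors and postsynaptic genes 18 rose and none fell, with a median of 2.55. Gria2, the AMPA receptor subunit that limits calcium entry, read 72.9, 67.6 and 76.3 against 2439, 2455 and 2546 and rose by 5.08 ± 0.16 (adjusted p = 3.3e-14). Grm5, a metabotropic glutamate receptor, went from 13, 11.1 and 12.3 to 927.5, 597.7 and 601.6, at least 18.2-fold. The GABA receptor subunit Gabra3 rose by 3.88. Its relatives Gabrb1 and Gabrg1 and the glycine receptor subunit Glra2 started under the bound and were at least 21.9-fold, 23.3-fold and 8.16-fold higher. Chrna3, Chrna4, Grin2b and Gria3 did not pass, with log2 differences between -0.21 and 0.39. With the mean of its probe sets Grin2b, an NMDA receptor subunit, was at 1.25.

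Excitability genes followed the same course, with 19 of 24 tested voltage-gated channel genes up, 2 down and a median of 2.29. Scn3a, the sodium channel subunit of immature neurons, read 45.2, 47.8 and 45.8 in progenitors and 1469, 1451 and 1392 in neurons, and rose by 4.93 ± 0.09 (adjusted p = 7.9e-17). Scn2a and Scn1a, the subunits of more mature neurons, started under the bound and were at least 13.4-fold and 8.74-fold higher. The auxiliary subunits Scn3b and Cacna2d2 rose by 4.10 and 3.44, and the potassium channel gene Kcnd2 by 3.35. The potassium channel gene Kcna1, which is typical of mature axons, ended below the bound, at least 1.44-fold lower, while Kcnj6, Kcnh2 and Cacna1a did not pass, at -0.18, -0.13 and -0.04.

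**Figure D1:**
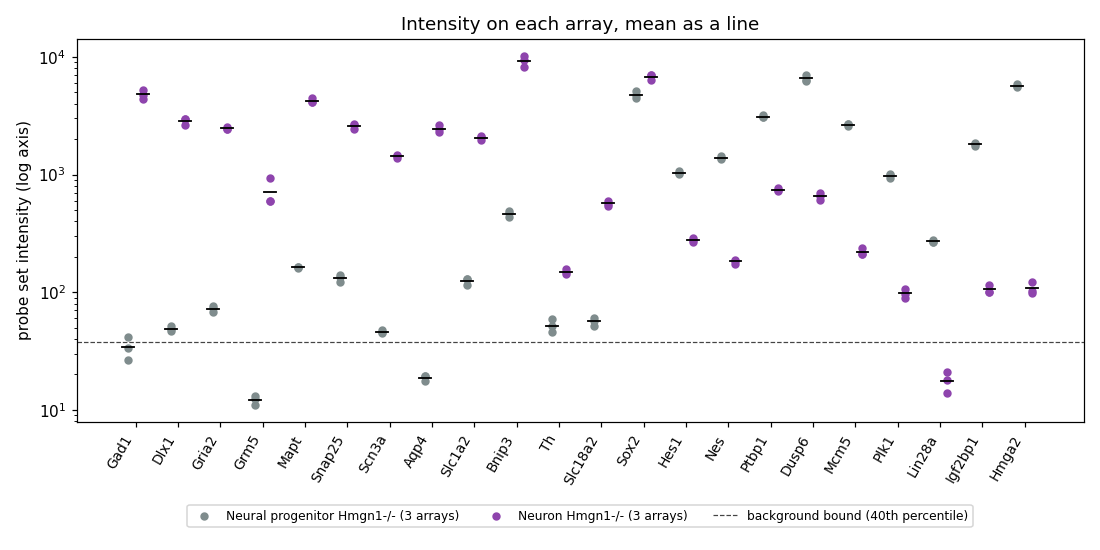
Intensity (log axis) on each of the 3 Hmgn1-/- progenitor arrays and 3 Hmgn1-/- neuron arrays for 22 genes, with the group mean as a line and the background bound of 37.9 dashed. In progenitors the means of Gad1, Aqp4 and Grm5 lie under the bound, though Gad1 reads 42.0 in replicate 1. In neurons the mean of Lin28a lies under it.

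Of 25 tested genes of the neuronal cytoskeleton and growth cone 20 rose and 3 fell, with a median of 1.98. Mapt, the microtubule protein tau, read 164.1, 164.5 and 159.6 against 4439, 4150 and 4152 and rose by 4.70 ± 0.07 (adjusted p = 9.5e-18). Kif5a, an axonal motor, rose by 3.38, the adhesion protein L1cam by 3.26 and doublecortin, Dcx, by 3.17. Stmn2, which regulates microtubules in growth cones, rose less, with 3304, 3379 and 3378 in progenitors and 7023, 6796 and 6811 in neurons. Neurofilament genes split: Ina rose by 2.53 and Nefl by 1.08, whereas Nefm fell from 483.1, 481.7 and 492.1 to 279.2, 268.9 and 326.8, by 0.74 ± 0.12 (adjusted p = 3.7e-05). In axon guidance 19 of 33 tested genes rose and 9 fell, led upwards by the adhesion molecules Cntn1 (4.66) and Chl1 (3.85), the ephrin Efnb3 (3.42) and the netrin receptor Dcc (2.25). The secreted semaphorins Sema3e and Sema3d fell, with differences of -2.48 and -1.80.

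The RNA-binding proteins that set neuronal splicing also changed. Ptbp1, which represses neuronal exons in progenitors, read 3192, 3086 and 3069 in progenitors and 720.1, 763.3 and 739.5 in neurons (log2 difference -2.07 ± 0.07 SE, adjusted p = 3.6e-14). Rest, the repressor of neuronal genes in other cells, fell too, with a log2 difference of -1.30. Of 18 tested members 12 rose, led by Celf6 (at least 31.3-fold), Rbfox3 (3.63), Celf4 (3.29) and Rbfox1 (3.10). Ptbp2, the neuronal relative of Ptbp1, rose from 2897, 3059 and 2793 to 3466, 3738 and 3635, by 0.31. Of 26 tested proneural and differentiation factors 15 rose and 7 fell. St18, Elavl4 and Elavl3 rose by 3.15, 2.69 and 2.51, and the early factor Neurog1 ended below the bound, at least 1.98-fold lower.

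The promoters of these genes were read for the REST element, since its repressor fell. The letters searched were TTCAGCACC, the left part of the element, on either strand of the 300 bases from 250 before to 50 after a start site. It was found in 3 of 27 promoters of the synaptic release list (11.1%), in 1.43% of promoters of the 200 largest rises and in 0.433% of those of all tested genes. It was in none of 30 promoters of the voltage-gated channel list. The right part of the element, GGACAGC, stood in 7.41% of synaptic promoters and 7.67% of those of tested genes. The 2 synaptic promoters with the right part were among the 3 with the left part, as 3 held either part. Below are the windows of Scg2, which rose by 4.23, and Unc13a, a vesicle-priming protein of the same list that was at least 3.76-fold higher, as RefSeq gives them for GRCm38.p6, with the match in capitals. They show where the match lies, 7 bases before and 22 bases after the start site. Both windows also hold the right part, read as gctgtcc in small letters shortly before the capitals.
Scg2, chr1:79439977-79440276, minus strand: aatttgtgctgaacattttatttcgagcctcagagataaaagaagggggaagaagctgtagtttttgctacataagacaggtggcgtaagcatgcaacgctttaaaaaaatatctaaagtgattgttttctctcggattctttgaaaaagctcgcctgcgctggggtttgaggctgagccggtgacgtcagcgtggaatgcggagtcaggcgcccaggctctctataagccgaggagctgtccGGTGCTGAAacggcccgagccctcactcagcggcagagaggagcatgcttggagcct
Unc13a, chr8:71671708-71672007, minus strand: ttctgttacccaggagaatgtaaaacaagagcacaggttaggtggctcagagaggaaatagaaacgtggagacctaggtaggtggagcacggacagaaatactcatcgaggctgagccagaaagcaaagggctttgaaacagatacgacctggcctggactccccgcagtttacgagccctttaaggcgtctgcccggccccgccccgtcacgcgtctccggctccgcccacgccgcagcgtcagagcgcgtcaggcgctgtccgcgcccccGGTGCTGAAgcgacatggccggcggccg
A match is a description of the letters and was not tested as a bound site.

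Glial genes rose beside the neuronal ones. Astrocytes are the support cells that clear transmitter and regulate water at synapses. Of 20 tested astroglia genes 17 rose and 3 fell, with a median of 2.51. Aqp4, the water channel of astrocyte end-feet, read 19.4, 17.6 and 19.4 in progenitors and 2646, 2285 and 2448 in neurons, at least 64.3-fold (log2 difference 6.96 ± 0.09 SE, adjusted p = 3.4e-18). Sparcl1, a secreted synapse-promoting protein, rose by 4.76, the glutamate transporter Slc1a2 by 4.04, Mlc1 by 3.94 and Apoe by 3.15. Gfap, the astrocyte intermediate filament, went from 43.5, 45.7 and 50.5 to 280.4, 271.1 and 322.8. The gliogenic factors Nfia, Nfib and Nfix rose by 2.81, 2.66 and 2.98. Cd44 and Gja1 fell (-1.63 and -0.15). Of 15 tested oligodendrocyte lineage genes 10 rose and 2 fell, among them Cnp (3.02), Gpr17 (at least 3.05-fold) and Sox8 (2.30). Bcas1 rose by 2.15 on its brightest probe set while another of its probe sets fell. Mbp, a myelin protein, rose from 193.0, 205.3 and 183.8 to 553.5, 599.1 and 563.9, and Mobp, another, did not pass (-0.23) and ended under the bound.

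The cell cycle genes fell together. DNA replication needs the MCM helicase to be loaded once per cycle, and mitosis needs a wave of kinases and motors late in the cycle. All 29 tested replication genes fell, with a median of -2.60, and so did all 29 tested mitosis genes, with a median of -2.65. Mcm5, a helicase subunit, read 2715, 2680 and 2603 in progenitors and 213.0, 211.9 and 238.8 in neurons, a log2 difference of -3.59 ± 0.07 (adjusted p = 2.0e-16). Cdc6, which loads the helicase, was at -3.92, the helicase subunit Mcm3 at -3.63, thymidine kinase Tk1 at -3.61 and Uhrf1, which carries DNA methylation through replication, at -3.60. Plk1, a mitotic kinase, read 934.2, 1010 and 983.6 against 96.5, 90.1 and 107.5, a log2 difference of -3.31 ± 0.09 (adjusted p = 5.8e-15). The Aurora kinases Aurkb and Aurka were at -3.34 and -3.24, and Bub1, of the spindle checkpoint, at -3.16. Mki67, the classic proliferation marker, fell least of the mitosis list, from 2320, 2651 and 2715 to 674.0, 684.3 and 813.7. Exo1, a repair exonuclease, had the largest measured fall next to Hmga2 over the named genes, at least 22.2-fold, to 36.5, 37.9 and 37.5.

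Promoters were read beside these genes, since the elements of cell cycle control lie close to the start site. E2F sites and the cell cycle homology region (CHR) are known to hold such genes off in resting cells. NF-Y boxes were read beside them. The CHR letters TTTGAA or TTCGAA stood on either strand in 22 of 27 promoters of the mitosis list (81.5%), against 20.7% for replication, 13.7% of promoters of all tested genes and 19.2% of all promoters in the table. The E2F letters TTTCCCGC or TTTGGCGC stood in 31.0% of replication promoters, none of the mitosis promoters and 2.62% of those of tested genes. CCAAT, the NF-Y box, stood in 74.1% of mitosis and 65.5% of replication promoters against 37.6% of those of tested genes. The groups differed little in base composition, with 59.6% and 57.5% G and C in mitosis and replication promoters and 60.2% in those of tested genes. Among the 200 largest falls 30.2% of promoters held a CHR match and 7.33% an E2F match, against 15.4% and 0.714% among the 200 largest rises. In promoters of all genes that fell at least 2-fold the CHR share was 18.7%.
Both elements are shown in the windows of the mitosis members with the largest falls that hold both (CCAAT and the CHR in capitals) and of the replication members with the largest falls that hold an E2F match (in capitals), all from RefSeq for GRCm38.p6 and written along the strand of the gene.
Plk1, chr7:122159185-122159484, plus strand: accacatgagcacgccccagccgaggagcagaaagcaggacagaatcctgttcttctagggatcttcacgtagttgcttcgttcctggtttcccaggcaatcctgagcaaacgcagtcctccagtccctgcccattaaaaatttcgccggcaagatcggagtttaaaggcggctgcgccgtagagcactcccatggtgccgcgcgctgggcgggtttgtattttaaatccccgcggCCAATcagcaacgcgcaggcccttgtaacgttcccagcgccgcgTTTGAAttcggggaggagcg
Aurka, chr2:172370521-172370820, minus strand: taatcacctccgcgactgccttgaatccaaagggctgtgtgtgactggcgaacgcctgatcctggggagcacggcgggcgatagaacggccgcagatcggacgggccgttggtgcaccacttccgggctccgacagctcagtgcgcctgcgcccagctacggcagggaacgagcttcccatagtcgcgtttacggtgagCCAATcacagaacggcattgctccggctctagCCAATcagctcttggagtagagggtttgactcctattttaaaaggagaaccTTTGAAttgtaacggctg
Cdc6, chr11:98907901-98908200, plus strand: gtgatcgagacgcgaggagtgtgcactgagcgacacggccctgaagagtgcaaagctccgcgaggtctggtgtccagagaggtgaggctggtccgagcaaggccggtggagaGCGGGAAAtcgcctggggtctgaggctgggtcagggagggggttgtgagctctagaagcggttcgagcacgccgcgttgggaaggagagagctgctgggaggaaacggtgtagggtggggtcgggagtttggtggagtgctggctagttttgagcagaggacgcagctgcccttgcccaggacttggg
Mcm3, chr1:20820263-20820562, minus strand: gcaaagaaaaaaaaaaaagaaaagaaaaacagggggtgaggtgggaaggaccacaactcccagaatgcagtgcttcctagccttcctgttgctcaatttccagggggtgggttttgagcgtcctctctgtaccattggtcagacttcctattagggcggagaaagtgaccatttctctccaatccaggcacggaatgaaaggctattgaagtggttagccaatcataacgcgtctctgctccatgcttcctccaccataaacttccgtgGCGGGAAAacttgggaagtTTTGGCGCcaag
In Plk1 and Aurka the CHR starts 30 and 32 bases after the annotated start site, and the nearest CCAAT starts 14 and 19 bases before it. The Cdc6 match lies 138 bases before the start and the Mcm3 matches 19 and 38 bases after it.

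**Figure D2:**
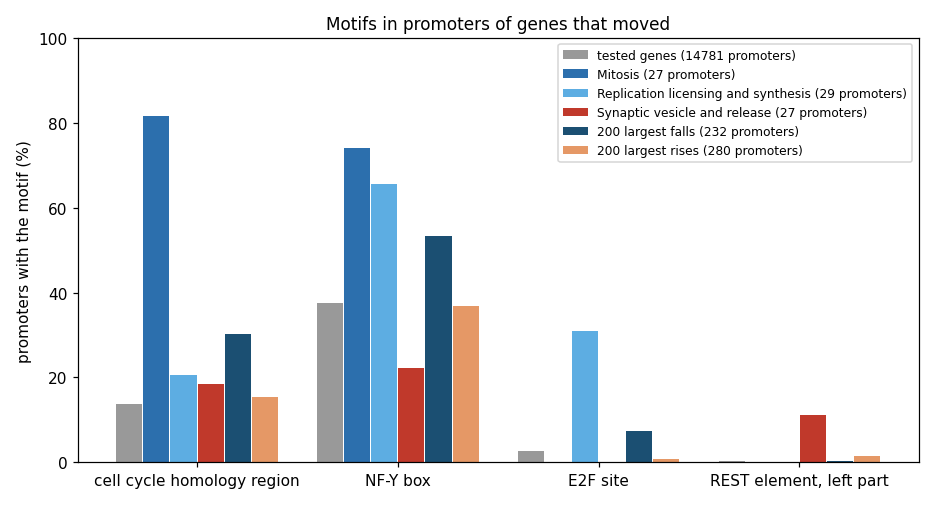
Share of promoters (percent, 0 to 100) that hold each of 4 motifs in 5 gene sets and in all tested genes, with the number of promoters in the legend. The mitosis set stands at 81.5% for the cell cycle homology region, the replication set at 31.0% for the E2F site and the synaptic set at 11.1% for the left part of the REST element.

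Around the G1 phase the direction depended on the member. Of 30 tested G1 cyclins and CDK inhibitors 21 fell and 8 rose. The repressor E2Fs E2f7 and E2f8 were at -3.42 and -3.25, cyclins Ccne2 and Ccne1 at -2.81 and -2.25, and the CDK inhibitor Cdkn2a at -2.09. Cdk5r1, the activator of the neuronal kinase CDK5, read 150.1, 147.2 and 148.0 against 1993, 1848 and 1936 and rose by 3.69 ± 0.08, and its relative Cdk5r2 rose by 2.16. Picked after their values had been seen, the CDK inhibitor Cdkn1b and the pocket proteins Rb1 and Rbl2 rose by 1.28, 1.35 and 1.41.

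The largest fall of all was that of Hmga2, an architectural chromatin protein of fetal stem cells. It read 5629, 5940 and 5573 in progenitors and 123.0, 98.3 and 102.4 in neurons, a 52.7-fold fall (log2 difference -5.72 ± 0.09 SE, adjusted p = 1.2e-17). All 5 tested oncofetal RNA regulators fell, with a median of -3.88. Igf2bp1, which protects fetal mRNAs, went from 1858, 1765 and 1819 to 115.1, 100.8 and 100.9. Lin28a, which blocks let-7 processing, read 266.6, 275.6 and 268.9 against 13.9, 18.1 and 21.1, at least 7.02-fold lower. Trim71 and Igf2bp3 were at -3.59 and -2.59. Several of these are known targets of let-7 and miR-125, microRNAs that were not measured here. A transcript beside such a microRNA cluster was on the array and was picked after its values had been seen: Mir99ahg, on GRCm38.p6 chr16:77329328-77558428, read 100.4, 88.4 and 88.6 in progenitors and 448.8, 421.5 and 397.5 in neurons and rose by 2.18 ± 0.11 (adjusted p = 9.3e-12). Its RefSeq model ends 40.5, 41.2 and 87.9 kb before the start of the mature miR-99a, let-7c and miR-125b sequences. Their mature sequences are given from RefSeq with the seed, bases 2 to 8, in capitals, to show that the 3 seeds differ.
mmu-miR-99a-5p: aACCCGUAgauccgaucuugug
mmu-let-7c-5p: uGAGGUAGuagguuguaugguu
mmu-miR-125b-5p: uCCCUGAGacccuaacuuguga

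What remained of the pluripotency programme fell further. Of 30 tested members 23 fell and 3 rose. Pou5f1, the core factor of ES cells, went from 143.2, 167.8 and 145.0 in progenitors to 17.1, 16.4 and 14.2 in neurons. Dnmt3b and Sall4 were at -3.58 and -2.95. Tet1, which oxidises methylcytosine, went the other way and rose from 215.8, 222.4 and 214.4 to 888.1, 971.2 and 828.1, by 2.03 ± 0.06 (adjusted p = 2.4e-14). Progenitor genes divided. Of 28 tested 14 fell and 8 rose, with a median of -0.24 that is close to that of all genes. Nes, the progenitor intermediate filament, went from 1386, 1426 and 1348 to 183.5, 175.0 and 189.5 and fell by 2.92 ± 0.09 (adjusted p = 3.5e-14), and Sox3, Otx1 and Gli3 were at -2.48, -2.27 and -1.97. Sox9 rose by 1.71, and outside the naming rule Sox2, read at 4750, 5149 and 4480 against 6987, 7023 and 6413, rose by 0.51. Sox1 and Fabp7 did not pass, at -0.08 and 0.09.

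In the FGF and ERK list, whose feedback inhibitors report pathway output, 16 of 23 tested genes fell and 5 rose. Dusp6, the ERK phosphatase, read 6432, 7033 and 6296 against 605.8, 660.9 and 702.2 and fell by 3.33 ± 0.08 (adjusted p = 6.6e-16). Spry4 was at least 8.22-fold lower, and Etv5, Il17rd and Spry1 were at -2.85, -2.64 and -2.15. Fgf13 and Fgf14, which act on sodium channels inside the cell, rose by 1.83 and 2.50. In the Hedgehog list 16 of 19 fell, with Gli3, Nkx2-9 and Gli2 at -1.97, -1.75 and -1.64. Its direct target and receptor Ptch1 rose, from 2796, 2875 and 2742 to 3308, 3570 and 3469, by 0.30, and was picked after its values had been seen, but was at 0.02 with the mean of its probe sets. In the Wnt list 26 of 33 fell, led by the agonist Rspo3 (-2.43) and the inhibitors Dkk1 and Dkk2 (-2.35 and -1.99). Notch genes were balanced, 9 up and 9 down of 25: Hes1 fell from 1012, 1064 and 1042 to 278.8, 264.7 and 289.1, while Hes5, also a target of the pathway, rose from 208.2, 181.5 and 166.9 to 520.9, 497.0 and 545.7. The BMP list too was balanced, 9 up and 10 down of 22, with the ligands Bmp4 and Bmp7 at -2.12 and -1.39 and the receptor Bmpr1b up by 2.36.

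Genes of non-neural cells changed by lineage. Of 37 tested mesenchyme and fibroblast genes 20 fell and 11 rose. The largest fall was that of Tagln, an actin-binding protein of smooth muscle, from 8501, 9079 and 9379 to 973.4, 787.2 and 666.0 (log2 difference -3.49 ± 0.20 SE, adjusted p = 5.6e-11), and Myl9, a light chain of myosin, was at -2.21. Cnn1, also of smooth muscle, ended under the bound and was at least 3.69-fold lower. The largest rises in the list were those of Lox, which cross-links collagen, from 328.1, 313.1 and 330.3 to 1324, 1285 and 985.6 (by 1.87 ± 0.16), and of the proteoglycan Dcn (1.86). In the basement membrane and laminin list 6 of 17 tested genes rose and 6 fell. Of 25 tested endoderm genes 21 fell and 2 rose. Spink1, Lrp2 and the keratin Krt8 were at -3.19, -2.86 and -2.31, while Ttr, a thyroid hormone carrier of visceral endoderm, liver and choroid plexus, rose from 488.1, 477.3 and 491.8 to 3131, 3812 and 3866. Of 14 tested placental genes 12 fell and none rose, and the prolactin family members Prl7d1, Prl7b1 and Prl2a1 were at least 6.76-fold, 6.64-fold and 8.10-fold lower. The size of the fall in this list depended on the filter on low values. Without it 16 of 21 fell, and the median was -0.78 in place of -2.38. Of 11 endothelial and blood genes 9 fell and none rose, and Tek ended below the bound, at least 4.0-fold lower. Without the filter on low values 10 of 17 endothelial and blood genes fell, and the median was -0.26 in place of -0.81. Of 20 mesoderm and muscle genes 12 fell and 2 rose, with Actc1 at -3.84 and Mef2c, which neurons also express, up by 2.41.

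Of 22 tested glycolysis and hypoxia genes 18 rose and 2 fell, with a median of 1.49. Bnip3, a mitophagy receptor induced by low oxygen, read 489.0, 470.6 and 435.2 in progenitors and 10140, 9474 and 8246 in neurons, a rise of 4.31 ± 0.08 (adjusted p = 6.8e-17). Ankrd37 was at least 12.1-fold higher, and Pdk1, which turns pyruvate away from the mitochondria, rose by 3.36. Aldoc and Eno2, enzymes that are also astrocyte and neuron isoforms, rose by 3.50 and 2.91. Hk2 and Adm fell (-0.70 and -1.02). The sources used here do not give the oxygen level of the cultures. In sterol and fatty acid synthesis 16 of 20 fell and 1 rose, by modest amounts, with Mvk at -1.38 and Srebf2, the master regulator, at -1.10. Lss and Sc5d were at -1.15 and -1.04 on their brightest probe sets, and each had another probe set that rose. Of 18 p53 targets 13 fell, among them Gtse1 (-2.66) and Perp (-2.65), and Sesn1 rose by 1.54. The amino acid stress list was mixed, 8 up and 12 down of 20, with the cysteine-making enzyme Cth at least 10.4-fold lower (from 416.8, 415.0 and 377.3 to 13.6, 22.0 and 17.2) and Vldlr up by 2.77.

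Of the 20 tested members of the chromatin remodeller list 9 rose and 10 fell, which is close to the shares over all genes. In neurogenesis a progenitor form of the BAF complex is known to give way to a neuronal one. Actl6a, the progenitor subunit, read 2002, 2014 and 1848 against 365.0, 375.8 and 410.0 and fell by 2.35 ± 0.08 (adjusted p = 1.0e-13). Its neuronal counterpart Actl6b rose by 0.99 ± 0.18, from 42.1, 44.7 and 44.3 to 86.6, 71.6 and 108.5. Ss18 fell by 1.08 and its counterpart Ss18l1 rose by 2.63 on its brightest probe set, while another of its probe sets fell. Smarca2 and the neuronal remodeller Chd5 rose by 1.73 and 3.60. Of 25 DNA methylation and Polycomb genes 16 fell and 4 rose: Ezh2 and Eed, of the H3K27 methyltransferase, were at -1.87 and -1.60, and the oxidases Tet1 and Tet2 rose by 2.03 and 1.44. The replication-independent histone genes H3f3b and H3f3a rose by 2.02 and 1.05, while H2ax and H2az1 were at -1.90 and -1.21. In the HMGN family Hmgn5 fell by 0.59 ± 0.05 (adjusted p = 1.9e-08), and Hmgn3, at 2492, 2479 and 2473 against 3570, 3960 and 3648, did not pass (0.58 ± 0.26, adjusted p = 0.051), though it passed under the replicate block and 7 other settings. Of 30 imprinted genes 19 rose and 8 fell, with Usp29 at least 20.3-fold higher, Nap1l5 and Magel2 up by 3.83 and 3.54, and Mest at -2.47. Of 14 tested Hox genes 11 fell and none rose, with -1.12 as the lowest value.

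**Figure D3:**
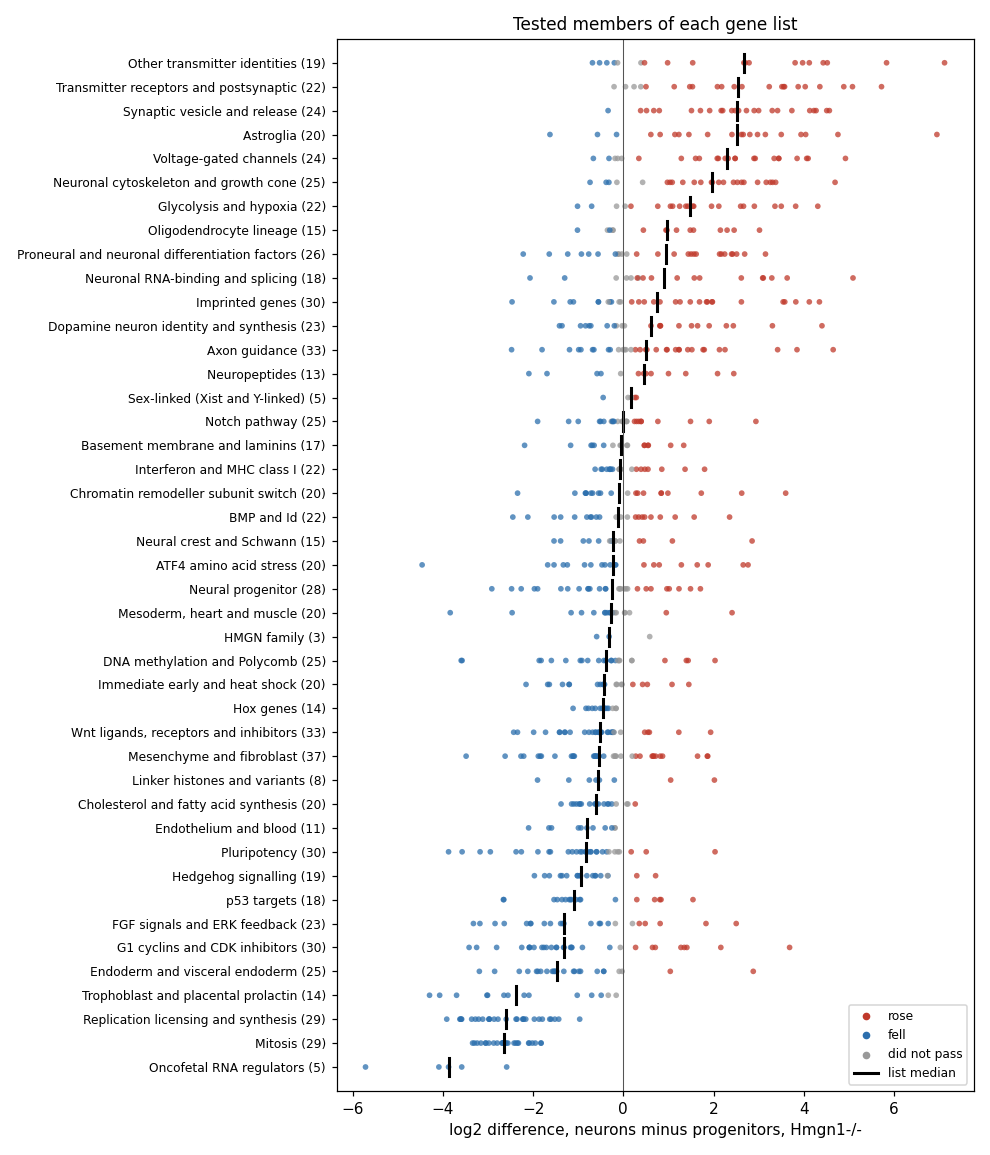
Log2 difference of every tested member of 43 gene lists, 1 point a gene, with the list median as a black line and the number tested in brackets. Transmitter, synaptic, astroglia and channel lists have medians above 2. The replication, mitosis and oncofetal lists lie wholly below 0, as do the placental list, the Hox list and the endothelial and blood list.

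Next to the groups above, the largest single rises that belong to no list were Rit2, a neuronal small GTPase, and Gng4, a G protein subunit. Rit2 read 15.8, 16.2 and 18.2 in progenitors and 1246, 1417 and 1224 in neurons, at least 33.9-fold. Gng4 went from 63.9, 63.6 and 54.8 to 3770, 4175 and 4144, a 65.3-fold rise. Calml4 was at least 29.1-fold and Slc4a10, a bicarbonate transporter, at least 20.6-fold higher. Mmd2, Mia, Tmem130 and Ecrg4 rose by 5.70, 5.46, 5.41 and 5.30. Igfbp1 and the synaptic lipid-signalling protein Plppr4 were at least 38.9-fold and 13.1-fold higher. Among falls, Shisa3 was at least 9.97-fold lower, Peg12 at least 9.80-fold and the prostaglandin-making enzyme Ptgs2 at least 5.98-fold. Lrr1 was at least 14.8-fold lower. Steap1, Greb1 and Synpo2l fell, with log2 differences of -4.09, -3.99 and -3.93.

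The same step was then read in Hmgn1+/+ cells, on 6 arrays that the comparison above does not use, to ask which of these changes depend on the genotype. In Hmgn1+/+ cells 79.0% of genes passed, of which 4997 rose (34.6%) and 6407 fell (44.4%). Across genes the steps of the genotypes correlated at r = 0.97 with a slope of 1.01, which is a description, as genes do not count as replicates. Of the 10437 genes called in both genotypes 10345 had the same direction and 92 the opposite one. The genes that moved at least 2-fold in both in the same direction, 3414, were 84.8% of those in Hmgn1-/- and 88.7% of those in Hmgn1+/+ cells. The difference of the steps, tested itself as an interaction, passed for 1599 genes (11.1%), higher in Hmgn1-/- for 818 (5.67%) and lower for 781 (5.41%). By at least 2-fold, 67 were higher (0.464%) and 79 lower (0.547%). Of 1115 genes with a called interaction that changed the same way in both genotypes, 705 moved further in Hmgn1-/- cells.

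**Figure D4:**
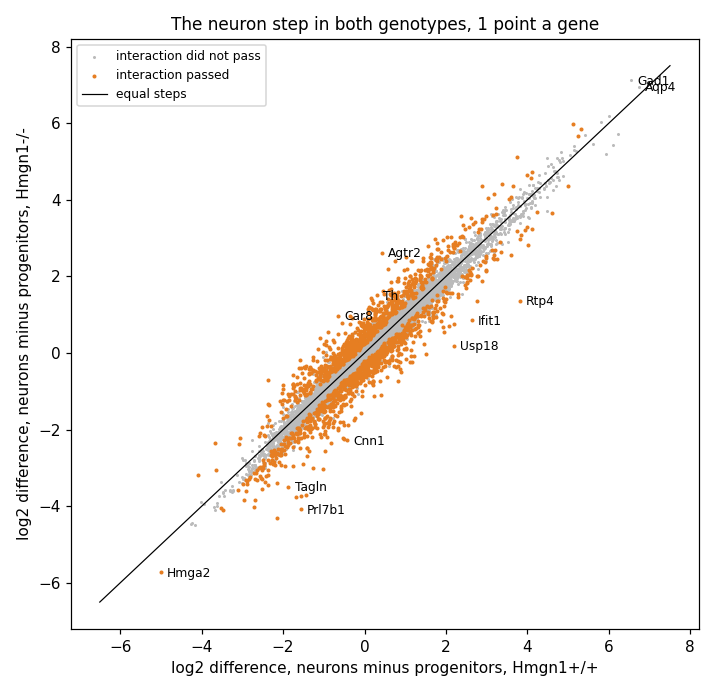
Log2 difference between neurons and progenitors in Hmgn1+/+ cells (horizontal) and in Hmgn1-/- cells (vertical), 1 point a gene, with genes whose interaction passed in orange and the line of equal steps. Points follow the line (r = 0.97), and Rtp4, Ifit1 and Usp18 lie below it, Agtr2 and Car8 above it.

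The interaction calls were spread unevenly over the lists. Of 14 placental genes 8 had a lower step in Hmgn1-/- cells and none a higher one. The filter on low values could take in such genes through the group where they were high. Prl4a1 had a mean above the bound only in Hmgn1-/- progenitors. Without the filter 21 members were tested, so the count describes only the members that passed it. Prl7b1 read 217.1, 276.6 and 278.1 in Hmgn1-/- progenitors and 53.1, 36.3 and 42.4 in Hmgn1+/+ progenitors, while neurons of both genotypes read between 12.2 and 16.6, under the bound. Its interaction was -2.50 ± 0.21 (adjusted p = 2.3e-06), and the genotypes lay apart at the progenitor stage. With group means raised to at least the bound it was -2.51. On that scale Prl2a1, Prl7d1 and Prl4a1 had interactions of -2.42, -2.45 and -1.66, since all 3 were under the bound in neurons of both genotypes and Prl4a1 also in Hmgn1+/+ progenitors. Of 37 mesenchyme genes 13 had a lower step in Hmgn1-/- cells and 2 a higher one. Myl9, a contractile light chain, fell from 2760, 2841 and 2743 to 685.9, 540.4 and 583.1 in Hmgn1-/- cells, but from 1615, 1582 and 1586 to 1169, 887.4 and 1333 in Hmgn1+/+ cells (interaction -1.69 ± 0.16, adjusted p = 6.9e-06). For Cnn1 the Hmgn1+/+ groups overlapped and the interaction was -1.85, or -1.46 with the Hmgn1-/- neurons raised to the bound. Of 29 mitosis genes 13 fell further in Hmgn1-/- cells, by small amounts, with a median interaction of -0.36.

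The interferon list, with the MHC class I genes, had unlike steps in the genotypes. In Hmgn1-/- cells 7 of its 22 tested genes rose and 8 fell, and in Hmgn1+/+ cells 14 rose and 5 fell. The interaction was lower for 10 and higher for none, with a median of -0.47 against -0.02 over all genes. Usp18, a brake on interferon signalling, read 296.3, 198.1 and 210.3 in Hmgn1-/- progenitors and 251.4, 259.4 and 280.4 in Hmgn1-/- neurons, which overlap (0.19 ± 0.13, adjusted p = 0.20). Without Hmgn1-/- progenitor replicate 1, the highest of its group, Usp18 passed with a rise of 0.37. In Hmgn1+/+ cells Usp18 went from 91.4, 93.9 and 112.8 to 497.9, 459.1 and 416.1, and the interaction was -2.01 ± 0.19 (adjusted p = 6.9e-06). Rtp4 rose in both, from 375.0, 242.2 and 258.4 to 733.9, 671.3 and 829.4 in Hmgn1-/- cells and from 89.5, 81.1 and 90.3 to 1255, 1167 and 1288 in Hmgn1+/+ cells. For both genes Hmgn1-/- cells were higher as progenitors and lower as neurons.

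In the other direction, 10 of 30 pluripotency genes had a higher step in Hmgn1-/- cells and none a lower one. Of 23 dopamine genes 6 had a higher and 2 a lower one, with a median interaction of 0.08. Pou5f1 started lower in Hmgn1-/- progenitors, at 143.2, 167.8 and 145.0 against 242.7, 257.5 and 272.0, and ended under the bound in both genotypes, with an interaction of 0.90, or 0.78 to the bound. Th barely moved in Hmgn1+/+ cells, from 50.8, 44.5 and 56.3 to 62.3, 66.4 and 58.4, and its interaction was 1.21 ± 0.24 (adjusted p = 0.0040). Corin reached 847.1, 636.6 and 685.9 in Hmgn1-/- neurons and 219.2, 222.8 and 267.5 in Hmgn1+/+ neurons. Its interaction was 1.04 ± 0.24, or 1.60 to the bound, with 2 of the 4 groups under it. Tph2 had an interaction of 1.24 ± 0.17, or 1.56 to the bound, with 3 of the 4 groups under it. It read 125.1, 104.3 and 106.6 in Hmgn1-/- neurons and, under the bound on 2 of 3 arrays, 32.3, 28.2 and 40.1 in Hmgn1+/+ neurons. Agtr2, an angiotensin receptor, went from 32.7, 36.9 and 32.3 to 243.8, 246.2 and 162.3 in Hmgn1-/- cells and from 94.5, 77.4 and 92.3 to 123.7, 108.3 and 122.8 in Hmgn1+/+ cells. Its interaction was the largest in this direction, 2.20 ± 0.18 (adjusted p = 2.2e-06). P4ha2, a collagen prolyl hydroxylase, rose by 0.40 in Hmgn1-/- cells and fell by 1.09 in Hmgn1+/+ cells, with unlike progenitor levels: 723.3, 651.1 and 647.8 against 2400, 2402 and 2502.

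**Figure D5:**
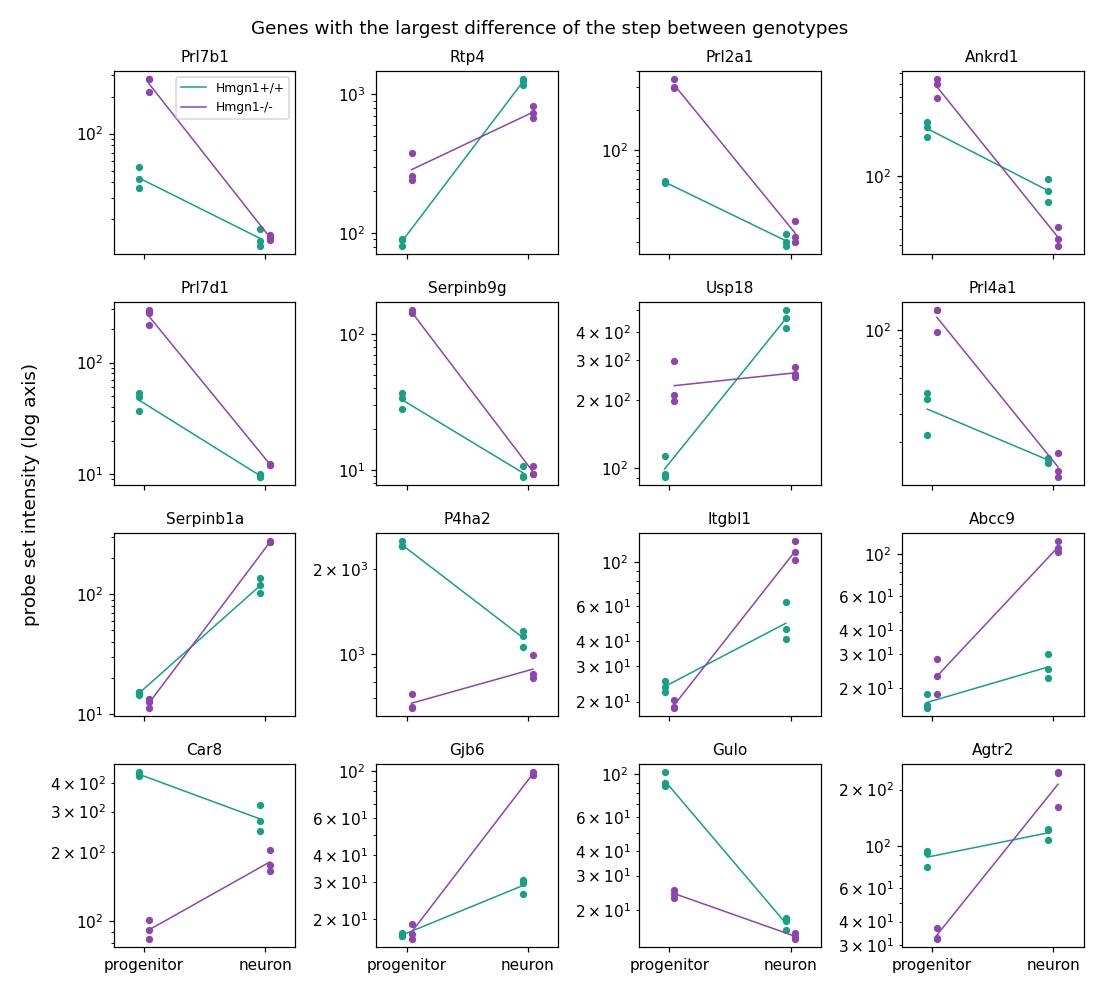
Intensity (log axis) on each array of progenitors and neurons for the 16 genes with the largest interaction in either direction, Hmgn1+/+ in green and Hmgn1-/- in purple, lines joining the group means of log2 values. For the prolactin genes the genotypes differ in progenitors and meet in neurons, and for Rtp4 and Usp18 the lines cross.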

How the data were processed

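RNA of each sample was hybridised as biotin-labelled cRNA to 1 Affymetrix array. The authors deposited a linear intensity per probe set, for which the submitters' processing notes list RMA and limma without versions. From these values log2(value + 1) was taken. Of 45101 probe sets 34945 had exactly 1 gene symbol, and 26311 of them reached the 40th percentile of their array on at least 3 of 18 arrays. The brightest probe set stood for its gene, which gave 14432 genes. limma 3.58.1 in R 4.3.3 was fitted with 6 group means over all 18 arrays (12 residual degrees of freedom), with Benjamini-Hochberg adjustment over all genes, and was tested on simulated data. Arrays have no counting depth, so their number limits the precision. Where the mean of a group was under the 40th percentile, the fold was computed to that percentile and is written "at least", and a fitted log2 value or interaction beside it is no bound.

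The experiment, the 43 gene lists with 1047 entries and the tests were chosen with earlier results of these data known. Named genes were the 15 largest rises and falls, the 8 largest interactions in each direction, up to 8 members with the largest change per list and the HMGN family. The arrays of progenitors and neurons did not overlap for them, in at least 1 genotype for the interaction. Cell type markers and other called list members were named after their values had been seen. Promoters were matched to RefSeq (GRCm38.p6) by symbol.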

Additional observations from a re-analysis of the deposited data

Results flagged for a closer look

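The following genes had steps from progenitors to neurons that differed between the genotypes, by the interaction test of limma (Hmgn1-/- step minus Hmgn1+/+ step, log2, adjusted p under 0.05 for each). They are the 8 largest in each direction. These values compare steps and not levels. A gene with a higher step can have the lower level at both stages, as P4ha2 has in Hmgn1-/- cells. The step was higher in Hmgn1-/- cells for Agtr2 (2.20), Gulo (1.68), Gjb6 (1.66), Car8 (1.62), Abcc9 (1.61), P4ha2 (1.48), Itgbl1 (1.48) and Serpinb1a (1.46). Several rest on levels under the background bound, and their values and order are then uncertain. With group means raised to at least the bound, Gulo was at 1.32, Gjb6 at 1.35 and Abcc9 at 1.52, each with 3 of the 4 groups under it, and Itgbl1 was at 1.18, Serpinb1a at 1.19 and Agtr2 at 2.07. Abcc9 changes without the filter on low values, as given with the processing. The step was lower in Hmgn1-/- cells for Prl7b1 (-2.5), Rtp4 (-2.44), Prl2a1 (-2.26), Ankrd1 (-2.19), Prl7d1 (-2.16), Serpinb9g (-2.08), Prl4a1 (-2.01) and Usp18 (-2.01). The prolactin genes and Serpinb9g were under the bound in neurons of both genotypes, and Prl4a1 and Serpinb9g also in Hmgn1+/+ progenitors. Raised to the bound, Prl7b1 was at -2.51, Prl7d1 at -2.45, Prl2a1 at -2.42, Ankrd1 at -2.08, Serpinb9g at -1.92 and Prl4a1 at -1.66. Gulo, Gjb6 and Itgbl1 lie on chromosome 14, and Serpinb1a, Serpinb9g and the prolactin genes on chromosome 13. These places were seen after the genes had been picked and were not tested. Of the 14432 tested genes 490 lie on chromosome 14 and 530 on chromosome 13, and members of 1 gene family do not count as separate cases.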

How the results depend on the processing

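With every probe set tested on its own, counts grew with the number tested, to 9030 rises and 11707 falls (3882 and 3277 by at least 2-fold) in Hmgn1-/- cells and 8810 and 11377 (3766 and 3050) in Hmgn1+/+ cells. Array weights gave 1254 genes with a lower interaction in place of 781, and the cause was not tested. For genes that fell at least 2-fold, in place of the 200 largest falls, 18.7% of promoters held the cell cycle homology region and 41.8% the NF-Y box. The other settings (no filter, a filter on the 6 arrays alone, an offset of 16, quantile normalization, a variance trend, the mean of the probe sets, only the arrays of the comparison) left the other counts over all genes within 1.5 times. Leaving out each array in turn gave 4929 to 4989 rises and 6247 to 6361 falls in Hmgn1-/- cells. Of 6437 values of 421 named results under these alternatives 6382 kept direction and side of the threshold, 16 lost the call, 33 gained it and 6 reversed. The mean of the probe sets turned Bsn to 0.49, Grin2b to 1.25 and Cacna1a to 0.037. Without 1 array at a time Cacna1a ranged from -0.082 to 0.023 and Chrna3 from -0.034 to 0.13. Of the named genes, 23 results changed in some setting, among them Abcc9 (0.17 without the filter, where another probe set stands for it), Ptch1, Gria3, Chrna4 and Hmgn3, which passed under 8 settings. Without a filter more members were tested. The falls in the Hox list were then 18 of 23 in place of 11 of 14, and those among other transmitter identities 7 of 24 in place of 4 of 19. With only the arrays of the comparison 5 oligodendrocyte genes fell in place of 2, and 4 under quantile normalization. In place of no fall among transmitter receptors there was 1 under 5 settings, the mean of the probe sets left 1 channel gene that fell in place of 2, and the variance trend gave 2 sterol genes that rose in place of 1. Without the filter 1 of 6 oncofetal genes rose. Whether the replicate numbers pair the samples could not be settled, as the correlations of deviations between progenitor and neuron arrays were small. They were 0.013, 0.11 and 0.044 for arrays of the same number and -0.0911 to 0.0555 for arrays of unlike number. Progenitor replicates 1 and 2 correlated best with the neuron array of their own number, and replicate 3 with neuron replicate 1. The main fit used no pairing. A replicate block gave 5076 rises and 6551 falls, and 728 higher and 687 lower interactions. Signal near background limits what can be said of genes under the bound, 407 of which were in progenitors among genes at least 2-fold higher.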

Other observations

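Genes of motile cilia, the beating hairs of ependymal cells, were seen among the larger rises and then counted by the start of their symbol, so the counts describe what prompted them and support nothing further. Of 18 tested genes whose symbol begins with Cfap 14 rose and 2 fell, with a median log2 difference of 1.08. Cfap54 read 28.4, 27.0 and 24.7 in Hmgn1-/- progenitors and 418.7, 520.8 and 548.3 in Hmgn1-/- neurons. All 3 Rsph genes, of the radial spoke, rose (median 2.75), and Rsph4a went from 11.8, 11.5 and 12.4 to 196.1, 159.2 and 174.6. Foxj1, the master factor of motile cilia, rose from 58.2, 73.9 and 59.1 to 194.1, 240.8 and 244.8 (1.81 ± 0.10 SE, adjusted p = 4.6e-11). Foxj1 and the genes with array values were picked after those had been seen. Of 5 Tekt genes 3 rose, with a median of 0.59. Axonemal dynein genes and their assembly factors were mixed, 5 up and 4 down of 11.

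Read the same way, 11 of 13 tested beta protocadherin genes (Pcdhb), which give neurons their surface identity, rose and none fell, with a median of 1.89. Falls were counted in 24 of 25 Polr genes (median -0.91), 25 of 29 Utp, Nop and Nol genes of ribosome assembly (-1.04) and 35 of 39 proteasome subunit genes (-0.62). Of 44 ribosomal protein genes 24 fell and 6 rose, with a median of -0.14 that equals that of all genes within 0.01, and 43 Nduf genes of respiratory complex I split into 20 up and 20 down. Vacuolar ATPase genes (Atp6v) rose in 12 of 16 cases (0.49).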
